A study of Mus musculus with 2 samples.

Results

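The lung's alveolar macrophages take up and recycle surfactant lipid, and 9 genes of that work are described here in single-cell data of total live lung cells: Pparg, Lpl, Cd36, Fabp4, Fabp5, Plin2, Abcg1, Abca1 and Lepr. They were taken by name from the 33696 genes of the deposited matrices, and all 9 had UMIs (unique molecular identifiers, each standing for 1 captured RNA molecule). One library of adult lung cells was labelled GFI1 KO, a germline deletion of the transcription factor GFI1, and 1 was labelled WT. The labels name no treatment, and how many mice each library held was not known here. The lungs were dissociated with enzymes, and were sorted for live cells before 10x Genomics 3′ sequencing. The study's methods state 2 samples per genotype, of which 1 per genotype was analysed here, so no value carries a test, and a difference between genotypes and a difference between mice or libraries cannot be told apart.

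Alveolar macrophages depend on the nuclear receptor PPARγ, which is switched on in fetal monocytes by GM-CSF and TGFβ and drives genes for lipid uptake and storage. Surfactant lipid enters the cell through scavenger receptors and after lipolysis, travels in the cytosol on fatty acid binding proteins, and is stored in droplets, oxidised, or exported as cholesterol by ABC transporters under the control of LXR. Mice and people that lack GM-CSF signalling or PPARγ in these cells accumulate lipid in the airspaces, the picture known as alveolar proteinosis.

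After filters on depth and mitochondrial RNA, 10495 cells labelled GFI1 KO and 19342 labelled WT remained, with medians of 11076 and 6217 UMIs per cell. Levels are given in CPM, the UMIs of a gene per 1000000 UMIs summed over a class of cells, with the GFI1 KO label first wherever a pair of values is given. Brackets give 95% intervals, exact Poisson for a level, exact conditional binomial for a ratio and Clopper-Pearson for a share. They cover counting error only. Shares of cells with a UMI are given after each cell was thinned to 1500 UMIs. The targeted gene, Gfi1, was at 3.60 CPM [3.22–4.0] (GFI1 KO label) and 3.46 CPM [3.16–3.79] (WT label). Its RNA was not lower under the GFI1 KO label and so did not check the labels. The makeup of the libraries differed widely, with 4029 against 143 classical monocyte-like cells and 101 against 2016 general capillary-like cells. In all, 74 cell barcodes occurred in both libraries, and 2 of them were alveolar macrophage-like in both.

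Alveolar macrophage-like (AM-like) cells numbered 2472 with the GFI1 KO label (23.6% of the library) and 4095 with the WT label (21.2%). All 11 alveolar macrophage markers, the genes Siglecf, Marco and Ear1 among them, were raised in the largest AM-like cluster and in a second one led by Ear1 and Ear2. The markers summed to 18105 and 20696 CPM. AM-like cells were of like depth in both libraries, with medians of 11318 and 11944 UMIs. None of the 9 genes, nor the other lipid genes described here, entered the clustering.

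Pparg (ENSMUSG00000000440), which encodes PPARγ, was at 563 CPM in AM-like cells (GFI1 KO label) and 537 CPM (WT label), a ratio of 1.05 [1.03–1.07]. After thinning, 50.6% and 49.0% of AM-like cells held a Pparg UMI, against 0.380% and 0.501% of B-like cells, which served as a reference for free RNA. Before thinning, B-like cells were shallower, with medians of 2923 and 3244 UMIs. Over the whole class the regulator was thus at nearly the same level in both libraries, although its ratio differed between states of the class.

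Lpl (ENSMUSG00000015568), the lipase that frees fatty acids from triglyceride, gave 56631 UMIs (1993 CPM) and 103541 UMIs (2037 CPM) in AM-like cells, a ratio of 0.978 [0.968–0.989]. It was seen in 88.1% and 90.7% of thinned AM-like cells and in 0.633% and 1.23% of thinned B-like cells. Cd36 (ENSMUSG00000002944), a scavenger receptor and fatty acid translocase, was at 423 and 507 CPM, a ratio of 0.834 [0.816–0.853], beside 3.13 and 7.79 CPM in T-like cells. Of the uptake genes, Lpl differed by little between the labels and Cd36 was lower under the GFI1 KO label.

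Fabp4 (ENSMUSG00000062515), the adipocyte-type fatty acid binding protein, was at 208 and 201 CPM, and the interval of its ratio, 1.03 [0.999–1.07], held 1. Fabp5 (ENSMUSG00000027533), the epidermal-type protein of the same family, was at 557 and 533 CPM, a ratio of 1.05 [1.02–1.07]. Plin2 (ENSMUSG00000028494), which coats lipid droplets, was at 1448 and 1524 CPM, a ratio of 0.950 [0.939–0.961]. Over the whole class, each of these carrier and droplet genes thus differed little between the 2 libraries.

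Abcg1 (ENSMUSG00000024030), the cholesterol exporter whose loss leads to lipid-laden alveolar macrophages, was at 1651 and 1641 CPM, a ratio of 1.01 [0.994–1.02]. Abca1 (ENSMUSG00000015243), which hands cholesterol to apolipoproteins, was at 204 and 285 CPM, a ratio of 0.717 [0.696–0.740]. The 2 exporters thus differed in their ratios, with Abca1 lower under the GFI1 KO label and Abcg1 level. Lepr (ENSMUSG00000057722), the leptin receptor, was at 692 and 788 CPM, a ratio of 0.878 [0.864–0.894].

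None of the 9 genes differed by 1.5-fold or more between the labels in AM-like cells. Among all 12668 genes with at least 30 UMIs there, 1.49% were at least 1.5-fold higher and 7.87% at least 1.5-fold lower under the GFI1 KO label. The median log2 ratio of the 9 genes was -0.03, beside -0.01 over all genes, whose middle 50% lay between -0.13 and 0.10. Abca1, at -0.48 on the log2 scale, Cd36, at -0.26, and Lepr, at -0.19, lay outside that range. Markers of other cells in the AM-like class also differed. The 9 general capillary markers summed to 8.94 and 44.8 CPM and the 8 B cell markers to 4.51 and 16.5 CPM, and their part in the ratios was not tested.

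**Figure D1:**
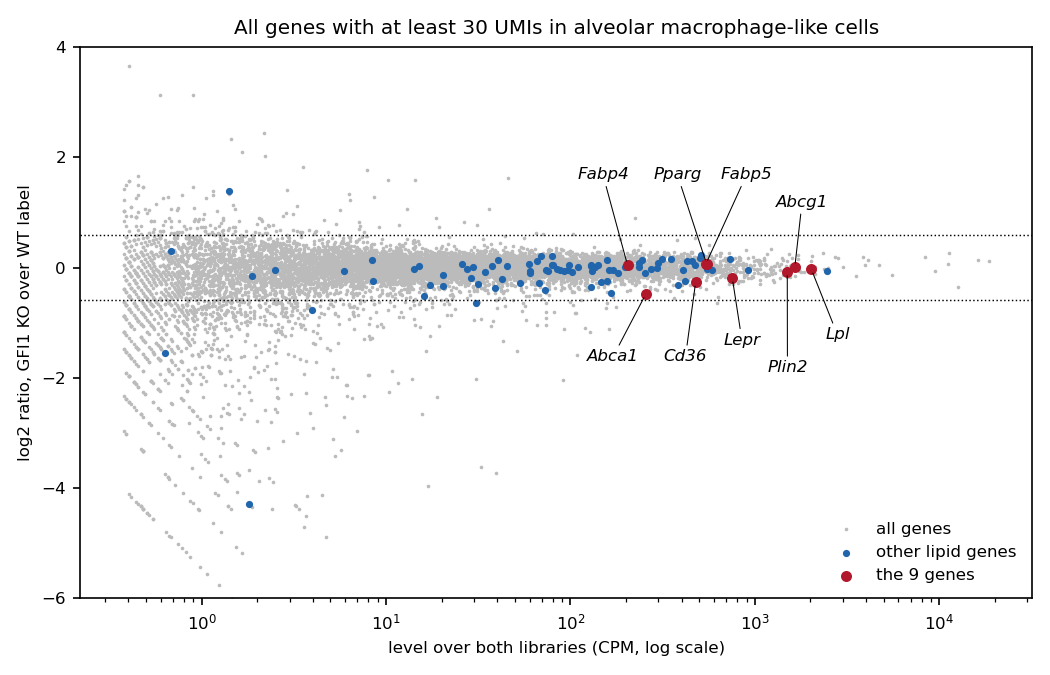
Each grey point is a gene with at least 30 UMIs in AM-like cells, with its mean level in CPM (log axis) against its log2 ratio of the GFI1 KO label over the WT label, 1 library each. Blue points are other lipid genes, dotted lines mark 1.5-fold, and the 9 genes, named in red, all lie within 1.5-fold, with Abca1 the lowest of them at -0.48.

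**Figure D2:**
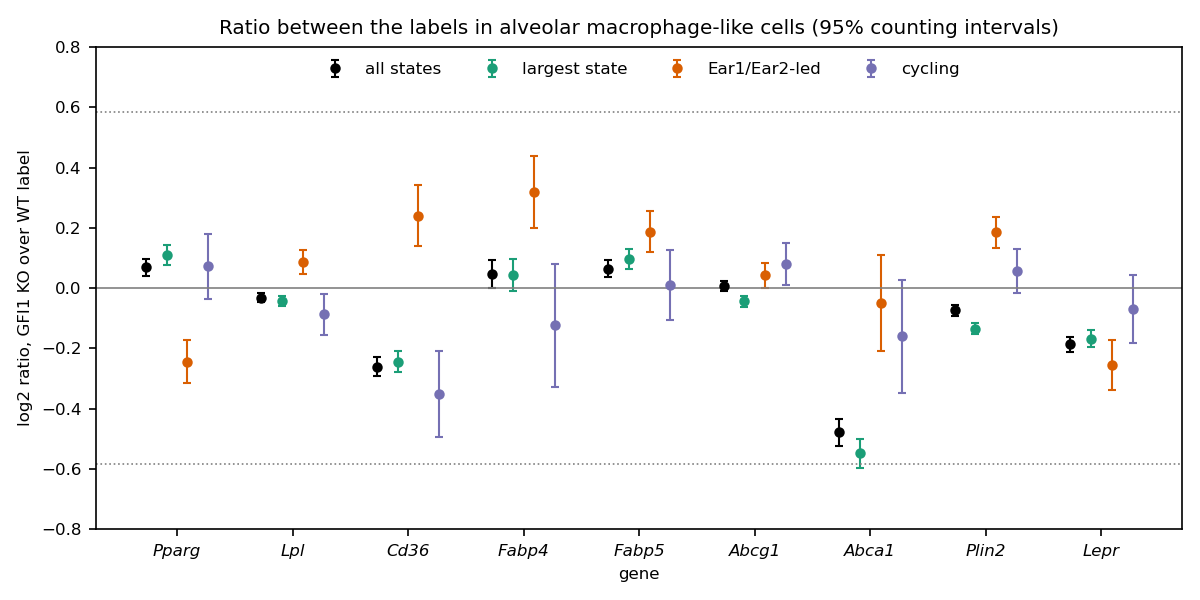
Log2 ratios of the 9 genes, GFI1 KO label over WT label, in the whole AM-like class and in its states, with 95% intervals for counting error only and dotted lines at 1.5-fold. Abca1 lies at -0.55 in the largest state and near 0 in the Ear1/Ear2-led state.

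The AM-like class held 4 states. The largest took 1802 cells (72.9%) and 3031 cells (74.0%), and a state led by Ear1 and Ear2 took 525 cells (21.2% [19.6–22.9]) and 672 cells (16.4% [15.3–17.6]). A cycling state took 144 and 213 cells. A state led by Mmp12, a macrophage elastase, and by Fbp1 took 179 cells (4.37% [3.77–5.04]) under the WT label and 1 cell under the GFI1 KO label. The Ear1/Ear2-led and Mmp12/Fbp1-led states depended on the clustering, and neither was named at resolution 0.5. At resolution 1.2 the former held 533 and 672 cells and the latter 4 and 286. Separate clustering of the libraries gave 434 and 623 cells in the Ear1/Ear2-led state and named no Mmp12/Fbp1-led state.

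The lower Abca1 level under the GFI1 KO label was found in the largest state, with 228 and 333 CPM and a ratio of 0.684 [0.662–0.707]. In the Ear1/Ear2-led state Abca1 was at 118 and 122 CPM, a ratio of 0.966 [0.865–1.08]. Cd36 was at 462 and 548 CPM in the largest state and at 318 and 269 CPM in the Ear1/Ear2-led state, ratios of 0.844 and 1.18 [1.1–1.27]. Pparg was at 571 and 529 CPM in the largest state and at 550 and 652 CPM in the Ear1/Ear2-led state, ratios of 1.08 and 0.844. Fabp4 was at 209 and 203 CPM in the largest state and at 233 and 187 CPM in the Ear1/Ear2-led state. Cd36, Pparg and, by smaller margins, Lpl, Abcg1 and Plin2 thus had ratios on opposite sides of 1 in the 2 states, a contrast that 1 library per genotype cannot test.

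Across states, Abca1, Lepr, Cd36 and Plin2 were higher in the largest than in the Ear1/Ear2-led state in both libraries. Abca1 was 1.92-fold and 2.72-fold higher in the largest state, Lepr 1.90-fold and 1.78-fold, Cd36 1.46-fold and 2.04-fold and Plin2 1.27-fold and 1.58-fold. Fabp5 went the other way, at 532 and 498 CPM in the largest state and 716 and 629 CPM in the Ear1/Ear2-led state. The cycling state held less Lpl than either, at 1312 and 1394 CPM, beside 2071 and 2135 CPM in the largest state. The Mmp12/Fbp1-led state, nearly all WT-labelled, had the highest Fabp5 of the states under that label, at 930 CPM, and the lowest Abca1, at 94.8 CPM.

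Single AM-like cells were then described at a common depth of 5000 UMIs, which left 2354 and 3943 cells. The median cell held UMIs of 7 of the 9 genes in both libraries, and all 9 were seen together in 6.71% and 7.89% of cells. Abcg1, Plin2 and Lpl were seen in at least 98.9% of these cells under either label. Abca1 was seen in 35.6% [33.7–37.6] and 43.6% [42.0–45.1], and Fabp4 in 39.8% and 40.7%. The share for Abca1 therefore differed in the same direction as its CPM.

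Fano factors (variance over mean of the thinned counts) over AM-like cells were highest for Fabp5, at 6.32 and 5.36, and Lepr, at 4.97 and 5.61. These values were not adjusted for the genes' mean counts. Over these cells, Pearson's r between the counts of a pair of genes was highest for Abcg1 and Abca1, at 0.32 and 0.38. It was 0.26 in both libraries for Lpl and Abcg1, and -0.05 and -0.11 for Fabp5 and Lepr. The cells of a library share its preparation and their fixed depth, so these values describe the libraries.

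The other genes of the pathway were read from 8 lists (regulators upstream of PPARγ, nuclear receptors, uptake, fatty acid oxidation, droplets, lysosomal handling and efflux, lipid synthesis, and leptin signalling). Of 93 listed genes, 92 were in the files and 85 had at least 30 UMIs in AM-like cells. Of these 85, 1 was at least 1.5-fold higher, 4 were at least 1.5-fold lower and 80 lay within that range, with a median log2 ratio of -0.04. Over all genes in these cells the shares were 1.49% higher and 7.87% lower. Whether the listed genes differ from those shares was not tested. The regulators upstream, 8 genes with a median of -0.05, held none past 1.5-fold. Among them Tgfbr1, a TGFβ receptor, was at 545 and 482 CPM, and Bhlhe41, a repressor needed by alveolar macrophages, at 87.0 and 75.4 CPM. Its paralogue Bhlhe40 went the other way, at 377 and 444 CPM, a ratio of 0.848. The 8 nuclear receptor genes had a median of -0.02, and Rxra, the partner of PPARγ and LXR, was at 144 and 139 CPM. Nr1h3, which encodes LXRα, was at 57.8 and 62.2 CPM, a ratio of 0.930. A part of either gene in the Abca1 ratio was not tested.

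Of 10 uptake genes, only Gpihbp1, which anchors lipoprotein lipase on endothelium, lay past 1.5-fold, with 4 and 139 UMIs, in a class where endothelial markers differed in the same direction. Fatty acid oxidation had 14 genes with a median of 0.05. Fabp1, the liver-type binding protein, was at 566 and 483 CPM, and Acsl3, an acyl-CoA synthetase, at 2.75 and 4.68 CPM, past 1.5-fold. None of 14 droplet genes passed, and Cidec, which fuses droplets, was at 334 and 301 CPM. Dgat1, an enzyme of triglyceride synthesis, was at 129 and 155 CPM, and G0s2, an inhibitor of lipolysis, at 27.6 and 34.0 CPM. Of 11 lysosomal and efflux genes, Apoc2, the cofactor of lipoprotein lipase, was higher at 2.32 and 0.885 CPM, on 66 and 45 UMIs. Classical monocyte-like cells, far more numerous under the GFI1 KO label, held it at 440 and 317 CPM, and their part in this value was not tested. Nceh1, a cholesteryl ester hydrolase, was at 784 and 700 CPM. Npc1, which exports cholesterol from lysosomes, was at 140 and 167 CPM, a ratio of 0.841, and Apoe, an acceptor of exported lipid, at 32.8 and 42.6 CPM, a ratio of 0.771.

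Lipid synthesis held the lowest median of the 8 lists, -0.27 over 15 genes, of which 2 were past 1.5-fold. It was also the lowest list in a nonclassical monocyte-like class described below. Scd2, a desaturase, was at 22.6 and 35.1 CPM, and Fads2, a desaturase of polyunsaturated fatty acids, had 8 and 42 UMIs. In leptin signalling, a list of 5 genes with a median of -0.20, none passed. Stat3 was at 309 and 292 CPM, and Irs2, an insulin receptor substrate, at 134 and 185 CPM.

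Outside the alveolar macrophages, the 9 genes had distinct ranges. The levels of 12 classes with at least 30 cells in both libraries were put in order, and a pair of neighbours was taken as apart where the values of the 2 libraries did not overlap. Lpl, Abcg1, Plin2, Fabp5 and Lepr had the 3 AM-like states present in both libraries at the top, although conventional dendritic-like cells overlapped the cycling state for Fabp5. Interstitial macrophage-like, group 2 innate lymphoid-like and mural-like cells were too few to enter. The first of these held Fabp5 at 491 and 367 CPM, beside 450 and 447 CPM in the cycling AM-like state. Under the WT label, 152 group 2 innate lymphoid-like cells held Pparg at 963 CPM, and 54 mural-like cells held Lepr at 431 CPM. For Lpl the next class, general capillary-like endothelium, stood at 271 and 256 CPM, apart from the AM-like states. Pparg and Fabp4 were highest in a nonclassical monocyte-like class, Cd36 was highest in general capillary-like endothelium, and for Abca1 the largest AM-like state and B-like cells overlapped.

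Below the top, Plin2 had the most regular order. Its levels were 604 and 599 CPM in Cd300e-led, 537 and 525 CPM in Slamf8-led and 472 and 415 CPM in classical monocyte-like cells, each apart from the next. Conventional dendritic-like cells followed at 237 and 176 CPM, and B-like cells came last at 15.2 and 18.5 CPM. The droplet coat gene was thus carried by all monocyte-like classes, under both labels and at decreasing levels from Cd300e-led to classical cells.

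Abcg1 was more narrowly placed. After the AM-like states it stood at 169 and 162 CPM in Cd300e-led cells, apart from all later classes, which lay between 21.2 and 133 CPM and mostly overlapped. In Abcg1 the B-, T- and NK-like cells, at 103 and 73.2, 67.1 and 75.3, and 72.1 and 89.1 CPM, did not fall below the classical monocyte-like cells, at 51.7 and 60.4 CPM. Abca1 below the AM-like states was at 83.1 and 85.2 CPM in Slamf8-led, 90.6 and 78.0 CPM in Cd300e-led and 73.9 and 83.6 CPM in classical monocyte-like cells, which overlapped. The 3 monocyte-like classes were thus alike in Abca1.

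Fabp4 and Lepr were low in most other classes. Fabp4 was between 1.17 and 2.80 CPM in NK-like, classical monocyte-like, T-like and B-like cells, which overlapped, beside 23.3 and 18.2 CPM in Slamf8-led cells. In the order, Lepr had general capillary-like endothelium after the AM-like states, at 50.8 and 117 CPM, and epithelium-like cells were at 17.3 and 16.3 CPM. Conventional dendritic-like cells, at 0 and 35.8 CPM, overlapped the epithelium-like cells. Every monocyte-like and lymphoid class in the order was between 0 and 3.89 CPM for Lepr. Group 2 innate lymphoid-like cells, too few under the GFI1 KO label to be ordered, held it at 121 CPM under the WT label. All 97 of these UMIs lay in 11 of the 152 cells, and a part of AM-like RNA in them was not tested. Fabp5, in contrast, was at 122 and 106 CPM in Slamf8-led and at 49.2 and 66.5 CPM in classical monocyte-like cells.

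**Figure D3:**
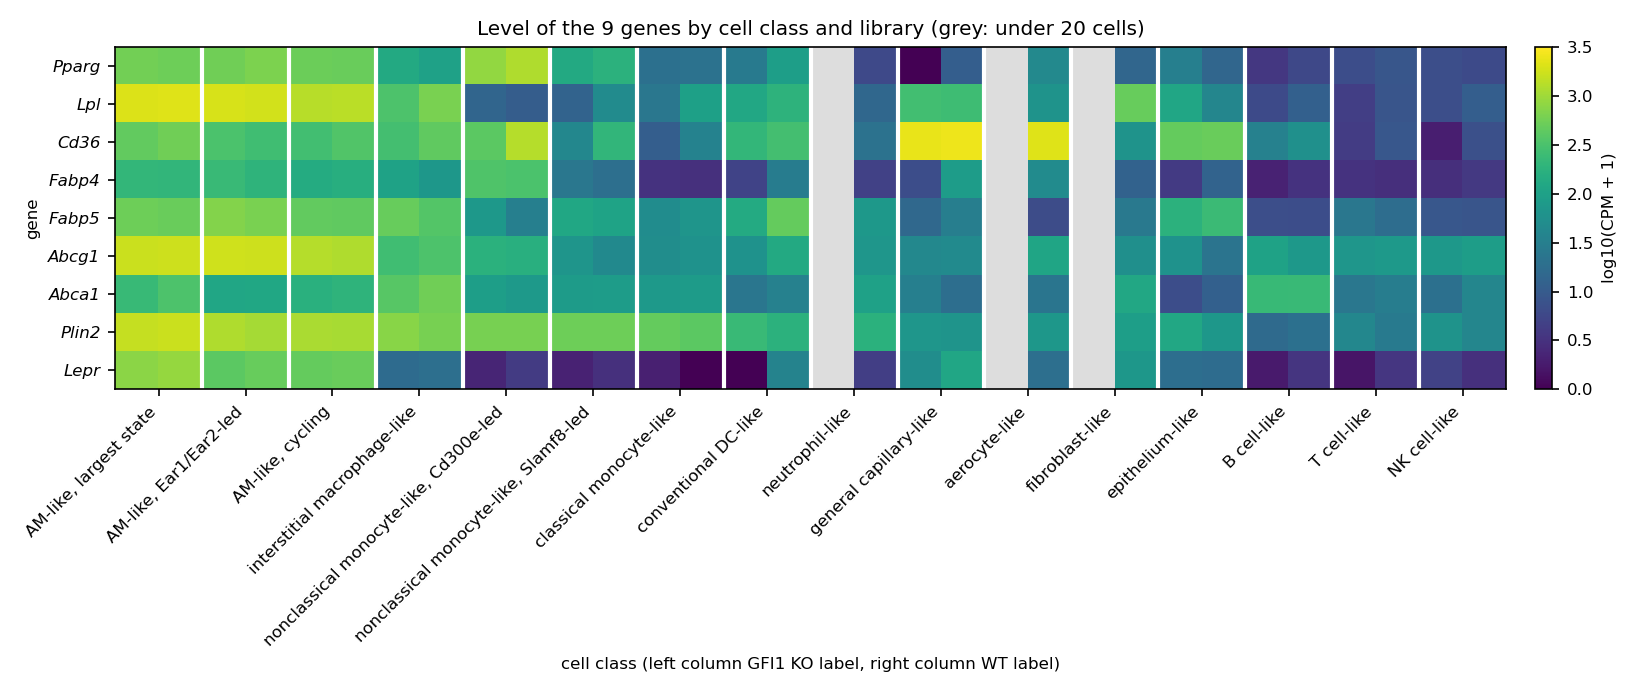
Heat map of the levels of the 9 genes, coloured by log10(CPM + 1), by cell class, with the GFI1 KO label in the left and the WT label in the right column of each class, 1 library each, and grey for under 20 cells. Lpl, Abcg1, Plin2, Fabp5 and Lepr are highest in AM-like states, Pparg and Fabp4 in Cd300e-led nonclassical monocyte-like cells, and Cd36 in general capillary-like endothelium.

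Nonclassical monocytes patrol the vessel wall. A class of this kind led by Cd300e held 481 and 379 cells, with median depths of 4219 and 4788 UMIs, and its 8 nonclassical monocyte markers summed to 6337 and 7181 CPM. Pparg was at 848 and 1216 CPM there, 1.49 and 2.30 times the level of the largest AM-like state. The ratio between the labels was 0.697 [0.656–0.741], and 53.9% and 73.7% of thinned cells held a Pparg UMI. The class therefore carried more Pparg per UMI than AM-like cells in both libraries, with less under the GFI1 KO label.

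Cd36 was at 411 and 1300 CPM in Cd300e-led cells, a ratio of 0.316 [0.293–0.341], and was seen in 34.2% and 72.5% of thinned cells. Fabp4 was at 343 and 317 CPM, 1.64 and 1.56 times its level in the largest AM-like state, with a ratio between the labels of 1.08. Fabp5 was at 72.2 and 31.8 CPM, a ratio of 2.27 [1.69–3.09]. Fabp5 was seen in 9.36% and 4.48% of thinned cells, against 1.27% and 0.847% of B-like cells. Of the 2 carriers, Fabp4 was thus close between the labels here and Fabp5 was not. Lpl was at 12.7 and 9.75 CPM, beside 5.07 and 10.7 CPM in B-like cells. Lepr was at 1.31 and 3.08 CPM, beside 0.780 and 2.51 CPM in B-like cells.

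Of the 8 genes with at least 30 UMIs in Cd300e-led cells, 1 (Fabp5) was at least 1.5-fold higher and 1 (Cd36) at least 1.5-fold lower under the GFI1 KO label. Over all 8366 genes with as many UMIs, 7.85% were higher and 5.34% lower by that margin. The median log2 ratio was 0.06 for the 8 genes and 0.03 for all. Marker sums there were 544 and 233 CPM for the 8 classical monocyte genes, 1045 and 872 CPM for the 11 alveolar macrophage genes and 495 and 547 CPM for the 9 general capillary genes, 4 of which were at 0 under the GFI1 KO label. Their part in the Cd36 and Fabp5 values was not tested. Among the other lipid genes, 68 had enough UMIs, 3 were higher and 6 lower. Of these, 2 were picked for mention after their values were seen. Csf2rb, the shared β chain of the GM-CSF receptor, was at 227 and 125 CPM. Klf4, a factor of monocyte differentiation, was at 510 and 830 CPM. As in AM-like cells, lipid synthesis held the lowest median log2 ratio of the 8 lists, -0.26 over 10 genes, of which 3 were at least 1.5-fold lower.

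**Figure D4:**
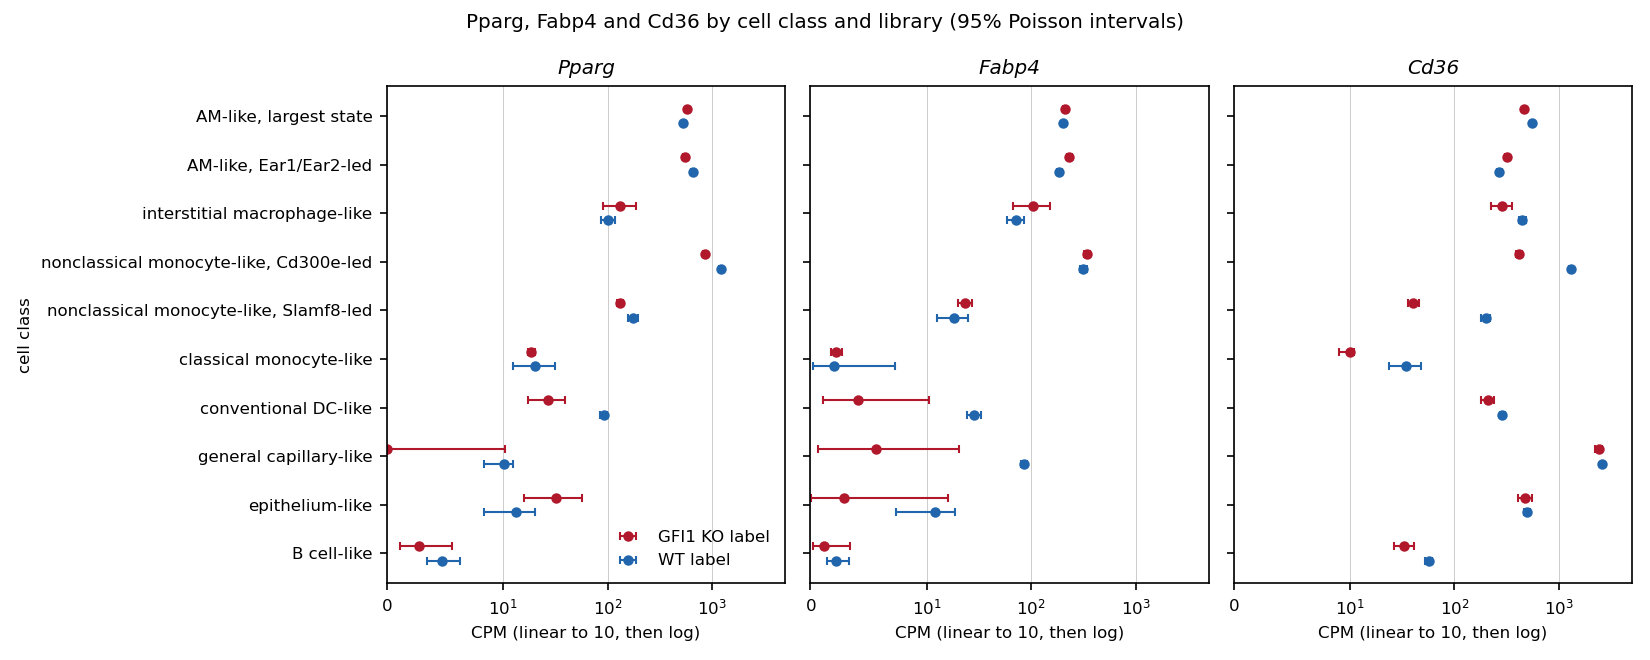
Levels in CPM (linear to 10, then log) of Pparg, Fabp4 and Cd36 by cell class, 1 point per library with 95% Poisson intervals for counting error. Pparg and Fabp4 are highest in Cd300e-led cells, and the labels lie far apart for Cd36 there (411 and 1300 CPM) and close in endothelium (2394 and 2608 CPM).

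A second nonclassical monocyte-like class, called Slamf8-led after 1 of its 10 leading genes, held 786 and 276 cells. Its markers were mixed. It raised 6 of 8 nonclassical monocyte markers, without Cd300e and Pglyrp1, and also 4 of 10 interstitial macrophage and 3 of 8 classical monocyte markers. Classical monocyte-like cells numbered 4029 and 143. Their class raised all 8 classical monocyte markers, but also 3 of 8 neutrophil and 3 of 8 granule-gene-expressing immature myeloid markers. The part of such cells in its ratios was not tested. Cd36 was at 40.3 and 199.7 CPM in Slamf8-led cells, a ratio of 0.202 [0.173–0.236], and at 10.0 and 34.3 CPM in classical monocyte-like cells, a ratio of 0.292. Thinned Slamf8-led cells held a Cd36 UMI in 3.71% and 15.9% of cells, and classical monocyte-like cells in 1.04% and 3.5%, against 3.67% and 4.39% of B-like cells. T-like cells, which held Cd36 at 3.13 and 7.79 CPM against 33.1 and 56.6 CPM in B-like cells, had it in 0.134% and 0.887% of thinned cells. Slamf8-led and classical monocyte-like cells thus stood above T-like cells under both labels, and B-like cells were no reference for free Cd36 RNA. The Slamf8-led class depended on the clustering. It held 119 and 159 cells at resolution 1.2, with a Cd36 log2 ratio of -2.33 beside -2.31 as reported, and no such class was named at resolution 0.5 or with each library clustered on its own. Lpl was lower under the GFI1 KO label, at 12.2 and 47.4 CPM in Slamf8-led and at 23.0 and 96.7 CPM in classical monocyte-like cells. In the latter, 2.71% and 12.6% of thinned cells held it. B-like cells, at 5.07 and 10.7 CPM, and T-like cells, at 3.41 and 7.41 CPM, also held less Lpl under that label. A part of free RNA in these Lpl ratios was not tested. Pparg was at 18.6 and 20.1 CPM in classical monocyte-like and at 131 and 174 CPM in Slamf8-led cells, below Cd300e-led cells under both labels. Since the Slamf8-led class is mixed in its markers, this is an order of levels only. Plin2 and Abca1 differed less between labels in the classical class, with 472 and 415 CPM for Plin2 and 73.9 and 83.6 CPM for Abca1.

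Interstitial macrophages lie in the lung tissue rather than the airspace. The interstitial macrophage-like class held only 26 cells (GFI1 KO label) and 189 (WT label), and its alveolar macrophage markers summed to 4355 and 7175 CPM. Abca1 was at 383 and 548 CPM there, 1.68 and 1.65 times the level of the largest AM-like state. Lepr was at 16.0 and 17.8 CPM, and the largest AM-like state held 48.7 and 49.2 times as much. Lpl was 6.33 and 3.44 times, Abcg1 6.21 and 5.15 times and Pparg 4.33 and 5.26 times higher in the largest AM-like state. The other genes differed less, with 2.01 and 2.80 times for Plin2 and 2.01 and 2.85 times for Fabp4. Cd36 was 1.63 and 1.22 times higher there and Fabp5 1.08 [0.908–1.31] and 1.36 times. Abca1 was the exporter higher in interstitial cells and Abcg1 the one higher in AM-like cells.

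In general capillary-like endothelium, which takes fatty acids from blood, Cd36 was at 2394 and 2608 CPM, a ratio of 0.918 [0.856–0.983], and was seen in 93.3% and 94.8% of thinned cells. The ratio was thus nearer to 1 here than in Cd300e-led cells of the same libraries, 0.316. Lpl was at 271 and 256 CPM. Fabp4 had 2 UMIs (5.65 CPM) (GFI1 KO label) and 829 UMIs (85.0 CPM) (WT label), where 2.38% of unthinned cells held all of them. Lepr was at 50.8 and 117 CPM, a ratio of 0.434 [0.256–0.689]. Lepr was seen in 4.44% and 15.5% of thinned cells. These ratios rest on 101 GFI1 KO-labelled cells. Aerocyte-like endothelium, described under the WT label with 229 cells, held Cd36 at 2133 CPM, and fibroblast-like cells, 291 under that label, held Lpl at 480 CPM and Lepr at 71.3 CPM.

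Among lymphoid classes, B-like cells held Abca1 at 230 and 231 CPM, with 25.4% and 27.7% of thinned cells positive, while T-like cells held it at 23.0 and 29.7 CPM. Abca1 was thus at one level in the B-like cells of both libraries while it was lower in the AM-like cells under the GFI1 KO label. Because B-like cells carry Abca1, they were no reference for free RNA of that gene. Conventional dendritic-like cells, 106 and 520, held Pparg at 26.7 and 91.4 CPM and Fabp5 at 138 and 465 CPM. Their Pparg was seen in 2.91% and 5.48% of thinned cells and their Fabp5 in 8.74% and 18%. Before thinning, 6 of the 106 and 78 of the 520 cells held all of their Lpl UMIs, 121 and 1026. All 202 Lepr UMIs of the class lay in 22 WT-labelled cells. A part of AM-like RNA in these values was not tested.

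For each of the 9 genes, up to 3 genes with the most similar profile were named by Pearson's r over 36 profiles of class and library, among 13847 genes, as a description over profiles that share libraries. Pparg was most like Ear2 (0.92), Lilra5 (0.90) and Abhd12 (0.89), and Lpl most like Hsd3b7 (0.94) and Dab2 (0.93). Cd36 was most like Vwf (0.89), Jup (0.88) and Flt1 (0.84), of which Vwf and Flt1 are endothelial genes. Fabp4 was most like Lilra5 (0.85), Abcc5 (0.85) and Fam168a (0.84), and Fabp5 most like Lsr (0.89), Shtn1 (0.89) and Lyzl4 (0.84). For the exporters, Abcg1 was most like Rims3, Klhdc4 and Slc39a2 (each 0.94), and Abca1 had the lowest values of the 9, with Nlrc4 (0.76), Sh3bp2 (0.75) and Neu1 (0.75). Plin2 was most like Creg1 (0.95), Ftl1 (0.94) and Sirpa (0.94), and Lepr most like Entrep1 (0.92), Hspa12a (0.92) and Ttyh2 (0.91). Within the set, Lpl and Lepr (0.84), Pparg and Plin2 (0.84) and Pparg and Fabp4 (0.83) were the closest pairs.

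PPARγ binds with RXR to direct repeats of AGGTCA spaced by 1 base (DR1, AGGTCANAGGTCA) and LXR with RXR to repeats spaced by 4 bases (DR4, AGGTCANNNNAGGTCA), so the promoters of the genes were searched for both on either strand. RefSeq promoters (GRCm38.p6, the 250 bases before each start) were at hand for 5 of the 9 genes, with 8 windows. A DR1 with at most 2 mismatches lay in 3.24% and a DR4 with at most 3 mismatches in 18.5% of all 32851 promoter windows, limits that were set after the windows of these genes had been seen. The genes with a match, 3 windows in all, are shown because their RNA is a textbook target of these receptors, with the match in capitals, read on the opposite strand.
Abca1, chr4:53159896-53160145, minus strand, DR4 67 bases before the start: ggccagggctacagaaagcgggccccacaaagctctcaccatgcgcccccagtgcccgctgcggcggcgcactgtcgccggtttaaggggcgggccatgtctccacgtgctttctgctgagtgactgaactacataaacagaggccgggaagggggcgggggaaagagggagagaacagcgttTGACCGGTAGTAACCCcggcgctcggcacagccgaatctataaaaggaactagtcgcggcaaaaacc
Cd36, chr5:17835897-17836146, minus strand, DR1 63 bases before the start: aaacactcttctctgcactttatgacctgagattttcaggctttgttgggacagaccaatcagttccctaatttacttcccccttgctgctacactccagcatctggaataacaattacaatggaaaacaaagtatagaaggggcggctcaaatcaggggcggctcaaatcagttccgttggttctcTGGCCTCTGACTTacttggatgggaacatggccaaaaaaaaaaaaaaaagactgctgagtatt
Plin2, chr4:86670060-86670309, minus strand, DR1 225 bases before the start: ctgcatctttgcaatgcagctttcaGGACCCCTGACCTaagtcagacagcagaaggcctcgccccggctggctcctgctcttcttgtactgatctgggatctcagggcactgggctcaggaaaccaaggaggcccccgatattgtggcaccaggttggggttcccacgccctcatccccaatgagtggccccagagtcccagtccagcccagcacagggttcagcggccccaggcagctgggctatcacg
The match in the Abca1 window, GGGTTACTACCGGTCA, has 3 mismatches to the DR4, and the matches in the Cd36 and Plin2 windows, AAGTCAGAGGCCA and AGGTCAGGGGTCC, have 2 each to the DR1. These are letters in a window, and no binding was measured. No match was found in the windows of Pparg and Lepr, which says only that these letters are not there.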

How the data were processed

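Single-cell RNA of lung cells was measured in 1 library per genotype. The authors deposited raw UMI counts per gene and called cell, made with Cell Ranger 9.0.1 on GRCm39 per the labels, with no normalization. Features held 33696 genes and 18 antibody tags, which were not used. The study's methods name a demultiplexing step, but each library was treated as 1 sample, since no map from cells to mice was used here. Cells needed 500 UMIs, 200 genes and at most 20% of UMIs from mitochondria. Genes of ribosomes, of mitochondria and with Gm- names (9535, with 18.9% and 16.4% of UMIs) were dropped.

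Counts were scaled to 10000 per cell and log-transformed. Clusters came from 2000 variable genes, 50 components, 15 neighbours and Leiden resolution 0.8 over both libraries, with Python 3.11.15, scanpy 1.11.5, leidenalg 0.10.2, numpy 2.4.6, scipy 1.17.1 and R 4.3.3. The 9 genes and the other lipid genes (102 in all) were withheld. Clusters were named where at least 3 markers were raised 1.5-fold and seen in 5% of cells. Scrublet called 345 (3.29%) and 1147 (5.93%) doublets. They were not removed cell by cell, but clusters in which at least 50% of cells were doublets were left unnamed and entered no class. Without its remaining doublets the AM-like class held 2461 and 4080 cells.

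UMIs were summed per library and class. A ratio was read at 1.5-fold for genes with at least 30 UMIs over both libraries. The scripts were tested on simulated data. Other lipid genes named are among the 2 highest and 2 lowest of each list, by the interval bound nearer to 1. Similar genes were ranked on log2(CPM + 1) among genes with at least 10 CPM in a class, and 1 of them is not reported here. The genes, lists and markers were chosen with earlier results of these data known, and the naming rule was revised after the clusters were seen. Alternatives changed the scaling, clustering, class, depth, free RNA, filter and fold.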

Additional observations from a re-analysis of the deposited data

Results flagged for a closer look

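For 4 of the 9 genes, the ratio between the labels was over 1.5-fold higher in one cell class and over 1.5-fold lower in another. With 1 library per label, the differences between classes were not tested. The share of all genes that do so was not computed, so the count is no result about these genes. Pparg had a ratio of 2.39 in epithelium-like cells and 0.292 in conventional dendritic-like cells. Lpl had 2.97 in epithelium-like and 0.238 in classical monocyte-like cells, and Abcg1 had 2.87 in epithelium-like and 0.455 in conventional dendritic-like cells. In the latter cells the log2 ratio of Abcg1, -1.14 as reported, was -1.10 and -0.58 in 2 alternatives, of which only 1 was past 1.5-fold. The epithelium-like class held 35 GFI1 KO-labelled and 107 WT-labelled cells, its airway markers alone took 454052 and 453447 CPM, and its 11 alveolar macrophage markers summed to 969 and 292 CPM, higher under the GFI1 KO label as were the 3 genes. Their part in the ratios was not tested. Under the GFI1 KO label, epithelium-like cells gave only 11 Pparg UMIs in 3 cells and 21 Abcg1 UMIs in 3 cells. They gave 41 Lpl UMIs in 5 cells. Fabp5 had a ratio of 2.27 in Cd300e-led nonclassical monocyte-like cells and 0.298 in conventional dendritic-like cells.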

How the results depend on the processing

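No paired analysis was possible because each genotype had 1 library. None of the 9 genes passed 1.5-fold in AM-like cells under any alternative that gave a ratio. The alternatives covered the whole class and states of it. Their median log2 ratio, -0.03, was -0.0574 as a mean over cells, -0.0562 with cells thinned to 5000 UMIs, -0.0141 with the class taken cell by cell from markers, -0.0682 in cycling cells and 0.0872 in the Ear1/Ear2-led state. The 1186 genes past 1.5-fold (189 higher, 997 lower) became 2103 with the class taken cell by cell, 693 (298 higher, 395 lower) in cycling cells, 779 with thinned cells, 630 at 2-fold, 3248 with a filter of 1 UMI and 557 in the Ear1/Ear2-led state. Their split was 320 higher and 835 lower with each library clustered on its own and 732 higher and 840 lower with the B-like level subtracted. The 5 other lipid genes past 1.5-fold became 8 with the class taken cell by cell, 2 with thinned cells, 9 with the B-like level subtracted, 3 at 2-fold, 8 with a filter of 1 UMI, 3 in the largest state and 2 in the Ear1/Ear2-led state. The causes were not tested. Of 143 alternative values of the 9 ratios in AM-like cells, 97 stayed within the counting interval and 46 moved. Abca1 ran from -0.55 to -0.05, Cd36 from -0.35 to 0.24 and Pparg from -0.24 to 0.11 on the log2 scale. The upper end for Abca1 and Cd36 and the lower end for Pparg were the Ear1/Ear2-led state. B-like cells hold Abca1, at 230 CPM under the GFI1 KO label, above the 204 CPM of AM-like cells. Subtracting their level there left a negative value, so Abca1 had no ratio in AM-like cells under this alternative. B-like cells also hold Cd36, and subtracting their level moved its ratio in Slamf8-led cells from -2.31 to -4.32. In Cd300e-led cells, Cd36 ran from -1.96 to -1.54, Pparg from -0.76 to -0.42 and Fabp5 from 1.17 to 1.47. The interstitial macrophage-like class went from 26 to 1016 cells under the GFI1 KO label with each library clustered on its own, and its Cd36 ratio then from -0.66 to -4.76. Analyses of single states and without the 74 shared barcodes were chosen after seeing the data, and leaving out those barcodes gave 1177 genes and a median of -0.03. With 1 library per genotype, intervals cover counting error only.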
